A study of Mus musculus with 9 samples.

Results

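The 38 Hox genes described here are protein-coding genes of the mouse Hoxa, Hoxb, Hoxc and Hoxd clusters, chosen by their symbol from a count table of 54532 genes. Clusters a and b gave 10 genes each, and clusters c and d gave 9 each. By paralog number they comprised 7 anterior genes (1 to 3), 15 central genes (4 to 8) and 16 posterior genes (9 to 13). On the mouse build GRCm38 they lay at chr6:52162417-52260880 (Hoxa2 to Hoxa13), chr11:96194316-96368256 (Hoxb13 to Hoxb1), chr15:102921103-103036852 (Hoxc13 to Hoxc4) and chr2:74668310-74765142 (Hoxd13 to Hoxd1).

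Hox genes encode homeodomain transcription factors. In the embryo they are switched on in the order in which they lie along a cluster, so that low paralog numbers mark the head and neck end of the body axis and high numbers the trunk, the tail and the ends of the limbs. Genes of 1 paralog number in different clusters derive from a common ancestral gene, and mesenchymal cells of adult depots, adipose tissue included, are known to keep part of their embryonic Hox pattern. Hox proteins bind DNA together with Pbx, Meis and Pknox proteins, and Polycomb and trithorax complexes hold the clusters silent or active.

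The study sequenced bulk RNA of adipose-derived stem cells from C57BL/6 mice, named Sub-ASC for the subcutaneous, Ab-ASC for the abdominal and PVASC for the perivascular fat depot, with 3 libraries in each of the 3 groups. No treatment is named for any group, and all were grown in the same kind of stem cell medium, which held leukaemia inhibitory factor and FGF, and harvested after several passages. The cells were thus cultured populations and not fresh tissue, and the sources used here do not give the mouse, the exact passage or the part of the abdominal or perivascular depot for each library. The p-values below therefore measure the spread between these libraries, which may be technical.

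Between 20524173 and 29881036 reads were counted per library. Markers of mesenchymal stem cells summed to 5990 to 6030 CPM (read counts scaled to library size, with TMM factors) in Sub-ASC, 1860 to 1970 in Ab-ASC and 2450 to 2540 in PVASC, and all 6 of them had reads in every group, although Ly6a (Sca1) was at 2050 CPM in Sub-ASC, 21.7 in Ab-ASC and 111 in PVASC. Markers of other cell types differed between the groups. The 4 endothelial markers summed to 121 to 132 CPM in Sub-ASC, 51.6 to 52.9 in Ab-ASC and 698 to 708 in PVASC, and the 4 smooth muscle markers to 58.5 to 63.2, 4360 to 5410 and 2640 to 2790. Pecam1, which encodes CD31, a surface protein by which the study called PVASCs negative in flow cytometry, was at 45.3, 12.5 and 179 CPM in the same order. The 7 mesothelial markers summed to 1.26 to 2.28, 92.6 to 98.3 and 39.4 to 40.5, with 3 of them at 0 reads in Sub-ASC. The 4 haematopoietic markers stood at 70.1 to 75.0, 60.8 to 72.3 and 43.4 to 46.6, and the 3 adipocyte markers at 18.3 to 20.8, 0.0446 to 0.178 and 0.336 to 0.406, with 1 at 0 reads in every group. The part of these cell types in the Hox values below was not tested, and in bulk RNA fewer cells expressing a gene cannot be told apart from less RNA per cell.

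The 3 depots differed in the level of different stretches of the clusters. Sub-ASC held the posterior genes Hoxa9, Hoxa10, Hoxb13, Hoxc9, Hoxc10 and Hoxc11 above both other groups. Below both in Sub-ASC were the genes Hoxa2 to Hoxa7 and, in cluster b, Hoxb2, Hoxb3, Hoxb5, Hoxb6, Hoxb8 and Hoxb9. PVASC held most of cluster b and both expressed posterior genes of cluster d above the other groups, and most of cluster c below them. Ab-ASC, like PVASC, had little Hoxa10 and Hoxc10, and it held Hoxc4, Hoxc5, Hoxc8 and Hoxc13 above both other groups. Each pattern rests on both comparisons of the group passing the quasi-likelihood test of edgeR (p-values adjusted by Benjamini-Hochberg over all genes), and of the 28 Hox genes tested 6 were above both other groups in Sub-ASC, 11 in PVASC and 4 in Ab-ASC, where 28.7%, 10.2% and 20.9% of all 16526 genes tested were.

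**Figure D1:**
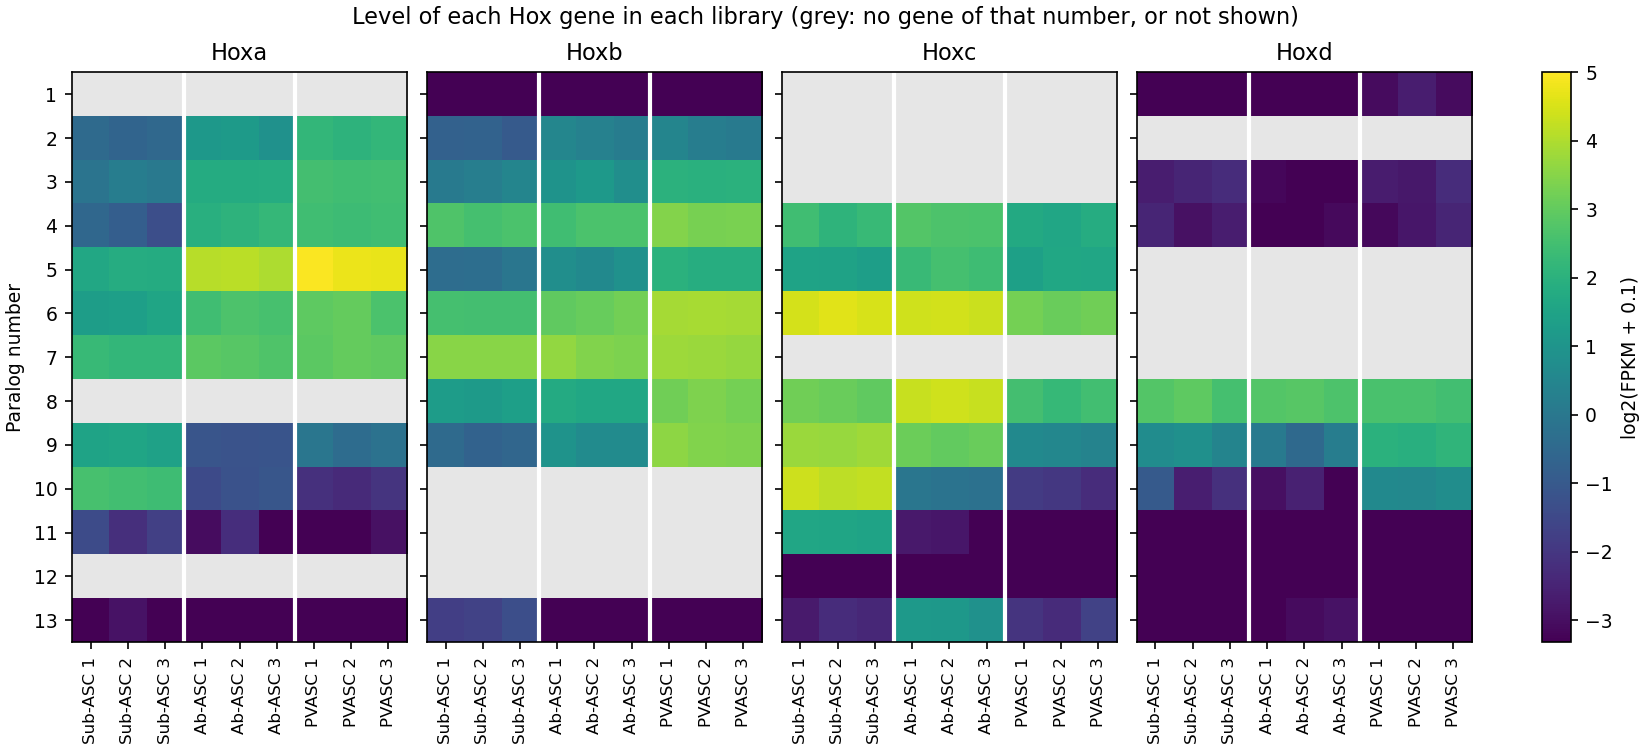
Colour gives the level as log2(FPKM + 0.1), FPKM being reads scaled by gene length and library total, for paralog numbers 1 to 13 (rows) in each of the 9 libraries (columns), with 1 panel per cluster. The 3 libraries of a group look alike, rows 9 and 10 of Hoxa and Hoxc are brightest in Sub-ASC, and Hoxb9 is bright in PVASC.

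At least 3 reads in each of a group's 3 libraries were found for 30 of the 38 genes in Sub-ASC, 25 in Ab-ASC and 27 in PVASC. These took in 25 genes in all groups and left 8 in none. Hoxb1, Hoxc12, Hoxd11 and Hoxd12 had no read in any library, where 3 reads would correspond to 0.0916 to 0.161 CPM per library, a limit that covers counting error only. Hoxa13 had 2 reads and Hoxd13 had 3 over all libraries, and Hoxd1 had 5, all in PVASC. Of the 38 genes, 28 passed the filter on low counts and were tested.

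In cluster a, the genes from Hoxa2 to Hoxa7 were higher in Ab-ASC and PVASC than in Sub-ASC, and Hoxa9 and Hoxa10 were lower. Each of the 8 genes tested in this cluster passed the test in both comparisons with Sub-ASC, where 70.4% (PVASC) and 75.3% (Ab-ASC) of all genes tested were called. Between PVASC and Ab-ASC, 4 were higher in PVASC, 1 was lower, and 3 did not pass, where 56.9% of all genes were called.

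The anterior genes of the cluster shape the hindbrain and the pharyngeal arches. Hoxa2, which specifies the second pharyngeal arch, was counted at 1.16, 0.982 and 1.10 CPM in the Sub-ASC libraries, at 4.08, 4.13 and 3.34 in Ab-ASC and at 7.15, 6.67 and 7.18 in PVASC. Its groups did not overlap, and PVASC stood 6.46-fold above Sub-ASC (log2 2.69 ± 0.14 SE, edgeR adjusted p = 3.69e-09). Hoxa3, needed for the thymus and parathyroid glands, gave 5.06, 6.52 and 5.72 CPM in Sub-ASC, 22.3, 21.2 and 21.9 in Ab-ASC and 30.9, 29.7 and 29.8 in PVASC. It too rose from group to group without overlap, by 3.77-fold from Sub-ASC to Ab-ASC and by 1.38-fold from Ab-ASC to PVASC. Of the exon bases of Hoxa3, 27.1% are shared with other genes on either strand in GENCODE M21. The library kit does not mark strand, so reads in the shared bases cannot be told apart by gene.

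Hoxa4 had the widest difference of the genes Hoxa2 to Hoxa7. Its values were 0.944, 0.746 and 0.495 CPM in Sub-ASC, 6.44, 6.75 and 7.75 in Ab-ASC and 7.73, 7.55 and 7.85 in PVASC. Ab-ASC and PVASC overlapped (log2 0.14 ± 0.12 SE, edgeR adjusted p = 0.354), while PVASC was 10.6-fold above Sub-ASC. Hoxa5, which patterns the lower neck, trachea and lung, was the most highly expressed gene of the cluster per length in Ab-ASC and PVASC. It stood at 5.83, 6.64 and 6.44 CPM in Sub-ASC, 35.6, 34.4 and 31.3 in Ab-ASC and 53.1, 46.1 and 45.6 in PVASC. All 3 groups were apart, with PVASC 7.64-fold above Sub-ASC (log2 2.93 ± 0.09 SE, edgeR adjusted p = 2.24e-11) and 1.43-fold above Ab-ASC (log2 0.52 ± 0.08 SE, edgeR adjusted p = 1.65e-04).

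Hoxa6 read 2.10, 2.20 and 2.55 CPM in Sub-ASC, 5.10, 5.82 and 5.44 in Ab-ASC and 6.08, 6.47 and 4.96 in PVASC, the last 2 groups overlapping. Hoxa7, with group means of 13.4, 21.4 and 20.4 CPM in the same order, was likewise lowest in Sub-ASC, at a smaller size of 1.53-fold between PVASC and Sub-ASC. The step from Hoxa7 to Hoxa9 was where the direction turned.

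Hoxa9 and Hoxa10 are known for the patterning of the lower trunk, the limbs and the reproductive tract. Hoxa9 gave 15.6, 16.1 and 15.0 CPM in Sub-ASC, 2.20, 1.95 and 2.05 in Ab-ASC and 4.43, 3.39 and 3.94 in PVASC. It was thus 7.53-fold lower in Ab-ASC and 3.96-fold lower in PVASC than in Sub-ASC, and was the only gene of the cluster lower in Ab-ASC than in both other groups. Hoxa10 gave 19.4, 18.5 and 17.6 CPM in Sub-ASC, 0.966, 1.11 and 1.29 in Ab-ASC and 0.367, 0.305 and 0.413 in PVASC. These 3 groups were far apart: PVASC lay 50.3-fold below Sub-ASC (log2 -5.65 ± 0.14 SE, edgeR adjusted p = 3.45e-12) and 3.09-fold below Ab-ASC, on 34 reads in all 3 PVASC libraries together. Hoxa11, which patterns the forearm and kidney, did not pass the filter. It had 34 reads in Sub-ASC, 7 in Ab-ASC, 6 of them in 1 library, and 2 in PVASC, a ratio of 21.2 between Sub-ASC and PVASC with an exact 95% interval of 5.44 to 182 that covers counting error only. Of its exon bases, 35.0% are shared with Hoxa11os on the opposite strand, where reads cannot be told apart by strand. Hoxa11os itself had 21 reads in Sub-ASC, 1 in Ab-ASC and 0 in PVASC.

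The promoters of Hoxa5 and Hoxa10 are shown because the 2 genes were among the strongest differences on either side of the point where the direction turned. Neither lies next to that point. Each is the 250 bases before the start of transcription in RefSeq (GRCm38.p6), 5′ to 3′ on the minus strand of chromosome 6, at chr6:52204588-52204837 for Hoxa5 and at chr6:52234940-52235189 for 1 of the 2 starts of Hoxa10, with matches on either strand to 4 motifs in capitals. These are TATAAA, the TATA box, then CCAAT, the CCAAT box, then GGGCGG, the core of a GC box, and TGATNNAT, a form of the site that Hox and Pbx proteins bind together, and none of these contains another.
Hoxa5: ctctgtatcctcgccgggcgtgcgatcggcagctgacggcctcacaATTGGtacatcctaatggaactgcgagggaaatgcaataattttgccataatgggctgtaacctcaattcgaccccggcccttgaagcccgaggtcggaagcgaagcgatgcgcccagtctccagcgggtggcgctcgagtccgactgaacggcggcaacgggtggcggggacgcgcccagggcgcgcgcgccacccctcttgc
Hoxa10: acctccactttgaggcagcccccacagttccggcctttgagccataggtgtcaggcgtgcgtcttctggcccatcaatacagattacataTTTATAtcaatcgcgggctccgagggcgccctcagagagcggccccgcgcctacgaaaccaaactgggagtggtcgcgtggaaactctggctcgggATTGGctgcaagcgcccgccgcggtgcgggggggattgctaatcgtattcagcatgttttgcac

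Both windows held 1 CCAAT match, and that of Hoxa10 held 1 TATAAA match in addition. They held 28 and 20 CpG dinucleotides, against a median of 6.0 over 32536 promoters of the same length. The window at the other start of Hoxa10 held 7 CpG and 1 GGGCGG match, and no CCAAT or TATAAA.

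In cluster b, PVASC was the highest group for Hoxb3 to Hoxb6, Hoxb8 and Hoxb9, and the difference was greatest at Hoxb9. Among the 9 genes tested, 7 were higher and 1, Hoxb13, was lower in PVASC than in Sub-ASC, beside 34.7% and 35.7% of all genes. Against Ab-ASC, where 24.7% of all genes were higher and 32.1% lower, 6 were higher in PVASC and none was lower, while 3 did not pass: Hoxb2, Hoxb7 and Hoxb13, which had no read in either group.

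Hoxb2 and Hoxb3 are expressed in the hindbrain of the embryo. Hoxb2 was counted at 1.76, 1.85 and 1.49 CPM in Sub-ASC, 5.04, 4.26 and 3.83 in Ab-ASC and 4.03, 3.39 and 3.05 in PVASC, the latter 2 overlapping. Hoxb3 was counted at 4.12, 4.71 and 5.56 CPM in Sub-ASC, 8.53, 9.55 and 7.35 in Ab-ASC and 15.3, 14.8 and 14.9 in PVASC, with no overlap. Of its exon bases, 52.9% are shared with Hoxb3os on the opposite strand, and 27.3% of those of Hoxb2. Reads in the shared bases cannot be told apart by strand, and Hoxb3os itself was higher in PVASC than in Sub-ASC.

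Hoxb4, known for the expansion of blood stem cells, had mean levels of 16.1 CPM in Sub-ASC, 16.1 in Ab-ASC and 23.8 in PVASC, and was 1.48-fold higher in PVASC than in either. Hoxb5 gave 1.97, 2.0 and 2.44 CPM in Sub-ASC, 4.99, 4.22 and 5.17 in Ab-ASC and 9.87, 9.04 and 8.90 in PVASC, without overlap. Hoxb6 gave 11.5, 11.3 and 11.2 CPM in Sub-ASC, 16.7, 17.2 and 19.2 in Ab-ASC and 26.4, 27.0 and 26.4 in PVASC, again without overlap. Hoxb7, between Hoxb6 and Hoxb8 on the chromosome, was close to flat. It gave 17.8, 17.9 and 18.1 CPM in Sub-ASC, 21.5, 17.3 and 16.8 in Ab-ASC and 19.3, 18.9 and 18.1 in PVASC. None of its 3 comparisons passed the test, and the log2 differences of 0.07 ± 0.09, 0.02 ± 0.09 and 0.04 ± 0.09 (SE) were each within 1 SE of 0. It was nevertheless the cluster's most highly expressed gene in Sub-ASC and Ab-ASC per length, at 11.4 ± 0.0745 and 11.2 ± 1.28 FPKM (SD, n = 3).

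Hoxb8 and Hoxb9 help to place the ribs, and Hoxb8 also acts in blood cell precursors. Hoxb8 was at 6.22, 6.01 and 6.74 CPM in Sub-ASC, 9.49, 8.26 and 8.51 in Ab-ASC and 22.0, 25.0 and 23.0 in PVASC. It was 3.68-fold higher in PVASC than in Sub-ASC and 2.67-fold higher than in Ab-ASC (log2 1.41 ± 0.09 SE, edgeR adjusted p = 8.36e-08). Hoxb9 was at 1.67, 1.34 and 1.49 CPM in Sub-ASC, 5.15, 4.09 and 4.10 in Ab-ASC and 27.7, 25.3 and 24.3 in PVASC. Each group was clear of the next, at 17.2-fold between PVASC and Sub-ASC (log2 4.10 ± 0.13 SE, edgeR adjusted p = 1.97e-11) and 5.83-fold between PVASC and Ab-ASC (log2 2.54 ± 0.11 SE, edgeR adjusted p = 2.54e-09).

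Hoxb13, known from the prostate and the tail bud, lies apart from the rest of the cluster and went the other way. It was found in each Sub-ASC library, at 0.429, 0.471 and 0.686 CPM, and had no read in the other 6 libraries. With 40 reads against 0, its level in Sub-ASC exceeded that in PVASC at least 5.5-fold and that in Ab-ASC at least 3.71-fold, taking 3 reads in each library as the limit.

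The promoter of Hoxb8 is shown as that of a gene higher in PVASC than in both other groups. It lies at chr11:96281655-96281904 on the plus strand and carries 2 TATAAA matches, 1 CCAAT match, 1 GGGCGG match and 1 match to TGATNNAT.
Hoxb8: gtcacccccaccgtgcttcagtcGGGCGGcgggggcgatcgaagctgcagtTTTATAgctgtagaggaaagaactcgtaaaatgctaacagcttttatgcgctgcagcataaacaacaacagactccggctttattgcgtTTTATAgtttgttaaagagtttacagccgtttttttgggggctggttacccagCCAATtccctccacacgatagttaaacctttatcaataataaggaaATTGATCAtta

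In cluster c, PVASC was the lowest group for most genes. Each of the 8 genes tested was lower in PVASC than in Ab-ASC and 6 were lower than in Sub-ASC, Hoxc5 and Hoxc13 being the others, where 32.1% and 35.7% of all genes were lower. For Hoxc11 the call against Ab-ASC rests on 4 reads in Ab-ASC and none in PVASC and passed by a narrow margin (edgeR adjusted p = 0.0369); it missed the threshold in 8 of the 9 fits that left out 1 library, at adjusted p from 0.0509 to 0.0897. Between Ab-ASC and Sub-ASC the cluster was split, with Hoxc4, Hoxc5, Hoxc8 and Hoxc13 higher in Ab-ASC, Hoxc9, Hoxc10 and Hoxc11 lower, and Hoxc6 not passing, where 37.0% of all genes were higher and 38.3% lower.

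Hoxc4 and Hoxc5 mark the neck and upper trunk in the embryo. Hoxc4 gave 14.1, 10.8 and 12.5 CPM in Sub-ASC, 19.0, 17.0 and 16.7 in Ab-ASC and 7.51, 6.91 and 8.04 in PVASC, with no overlap. Hoxc5 gave 8.71, 8.48 and 7.77 CPM in Sub-ASC, 16.7, 18.8 and 17.2 in Ab-ASC and 7.15, 8.53 and 8.20 in PVASC, so that only Ab-ASC stood apart, by 2.21-fold over PVASC. Hoxc6, a marker of the level of the forelimb and upper chest, gave 54.7, 60.3 and 55.1 CPM in Sub-ASC, 55.4, 54.8 and 51.1 in Ab-ASC and 21, 18.6 and 20.1 in PVASC. Sub-ASC and Ab-ASC overlapped and PVASC lay 2.84-fold and 2.70-fold below them. Even so it was the most highly expressed gene of the cluster in PVASC per length, at 9.05 ± 0.587 FPKM (SD, n = 3), beside 23.1 ± 1.31 in Sub-ASC and 20.9 ± 0.850 in Ab-ASC.

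Hoxc8, which patterns the chest and is also known as a white adipocyte gene that restrains brown fat formation, was at 26.4, 24.6 and 22.6 CPM in Sub-ASC, 60.5, 62.1 and 59.6 in Ab-ASC and 14.6, 12.2 and 14.2 in PVASC. Ab-ASC was thus 4.45-fold above PVASC (log2 of PVASC over Ab-ASC -2.15 ± 0.08 SE, edgeR adjusted p = 8.56e-10) and 2.48-fold above Sub-ASC (log2 1.31 ± 0.08 SE, edgeR adjusted p = 1.22e-08). Hoxc9, which sets thoracic identity in motor neurons, was at 32.6, 32.0 and 34.8 CPM in Sub-ASC, 23.1, 20.3 and 22.0 in Ab-ASC and 3.21, 3.01 and 2.73 in PVASC. Here PVASC stood alone at the bottom, 11.1-fold under Sub-ASC and 7.29-fold under Ab-ASC.

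Hoxc10, known from the lumbar trunk and the hindlimb and from subcutaneous white fat, separated Sub-ASC from the rest. It was counted at 39.8, 34.6 and 36.6 CPM in Sub-ASC, 1.82, 1.60 and 1.56 in Ab-ASC and 0.305, 0.271 and 0.191 in PVASC. The difference was 142-fold to PVASC (log2 -7.15 ± 0.14 SE, edgeR adjusted p = 3.90e-13) and 22.3-fold to Ab-ASC (log2 -4.48 ± 0.11 SE, edgeR adjusted p = 3.33e-12), and Ab-ASC was 6.35-fold above PVASC on 105 against 24 reads. Hoxc5 and Hoxc10 share 166 exon bases on the same strand, 8.70% of those of Hoxc10, and reads there could not be assigned to either. Hoxc11, its neighbour, was at 6.05, 5.85 and 5.60 CPM in Sub-ASC, 0.107, 0.0888 and 0 in Ab-ASC and 0 in each PVASC library, at least 60.6-fold higher in Sub-ASC than in PVASC.

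Hoxc13, which controls hair and nail keratins, broke with the neighbouring genes. It was at 0.129, 0.275 and 0.229 CPM in Sub-ASC, 5.74, 5.33 and 4.59 in Ab-ASC and 0.305, 0.237 and 0.477 in PVASC. Ab-ASC was 23.9-fold above Sub-ASC (log2 4.58 ± 0.28 SE, edgeR adjusted p = 1.39e-08) and 15.1-fold above PVASC (log2 of PVASC over Ab-ASC -3.91 ± 0.25 SE, edgeR adjusted p = 7.49e-08), while Sub-ASC and PVASC overlapped. Hoxc12, between Hoxc11 and Hoxc13, had no read in any library.

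**Figure D2:**
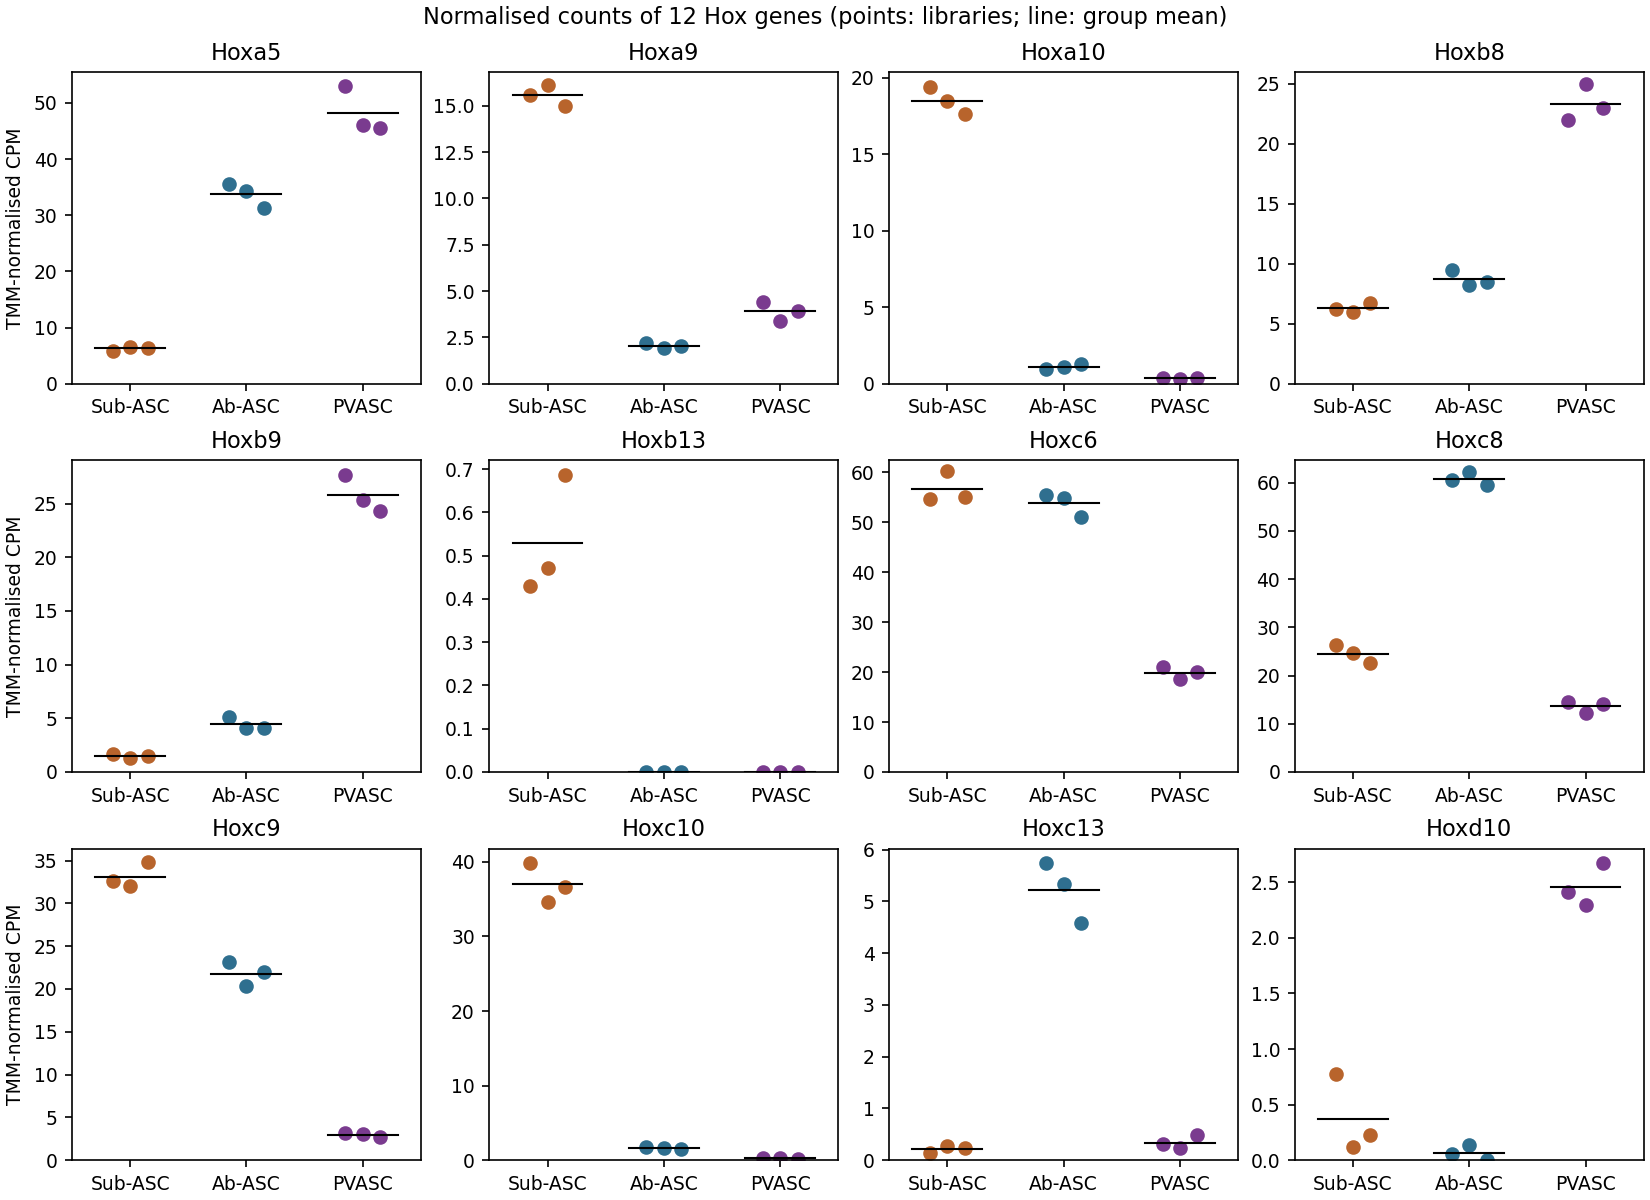
TMM-normalised CPM (linear axes from 0) of 12 Hox genes, with a point for each library and a line at the group mean (n = 3). Hoxa9, Hoxa10, Hoxc9 and Hoxc10 are highest in Sub-ASC, Hoxc8 and Hoxc13 in Ab-ASC, and Hoxa5, Hoxb8, Hoxb9 and Hoxd10 in PVASC; Hoxb13 has points above 0 in Sub-ASC only.

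In cluster d, expression was low outside Hoxd8 and Hoxd9, and PVASC held the most Hoxd9 and Hoxd10. Only 3 of the 9 genes were tested. Hoxd8 gave 18.8, 20.9 and 16.2 CPM in Sub-ASC, 20.5, 20.3 and 18.4 in Ab-ASC and 15.0, 15.3 and 13.8 in PVASC. PVASC was lowest, without overlap but by a small step of 1.27-fold from Sub-ASC and 1.34-fold from Ab-ASC, and the gene was the highest of its cluster per length in every group (5.85 to 6.72 FPKM, group means). Hoxd9 gave 3.39, 3.69 and 2.74 CPM in Sub-ASC, 2.25, 1.38 and 2.36 in Ab-ASC and 7.61, 7.28 and 8.39 in PVASC, 2.37-fold and 3.90-fold higher in PVASC.

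Hoxd10, which acts in the hindlimb and the lumbar spinal cord, was at 2.41, 2.30 and 2.67 CPM in PVASC. In Sub-ASC it was at 0.772, 0.118 and 0.229, and in Ab-ASC at 0.0536, 0.133 and 0. PVASC was clear of both, 36.4-fold above Ab-ASC (log2 5.19 ± 0.62 SE, edgeR adjusted p = 2.43e-05, 231 against 4 reads) and 6.72-fold above Sub-ASC (log2 2.75 ± 0.43 SE, edgeR adjusted p = 9.68e-05). Single libraries moved these values with the calls kept: the log2 difference to Sub-ASC was 3.78 without Sub-ASC replicate 1, and that to Ab-ASC was 6.40 without Ab-ASC replicate 2 and 4.6 without Ab-ASC replicate 3. The call between Ab-ASC and Sub-ASC (edgeR adjusted p = 0.0267) at log2 -2.44 did not last without Sub-ASC replicate 1 (-1.40, adjusted p = 0.148) or without Ab-ASC replicate 3 (-1.84, adjusted p = 0.0907), and the difference was -3.65 without Ab-ASC replicate 2. These 2 groups overlapped. Hoxd3 and Hoxd4 were near the limit, with 27 and 11 reads in Sub-ASC, 1 each in Ab-ASC and 25 and 10 in PVASC. For Hoxd3 the ratio to Ab-ASC was 22.9 in Sub-ASC (exact 95% interval 3.77 to 937) and 17.0 in PVASC (2.78 to 696), intervals that cover counting error only, and 62.8% of its exon bases are shared with other genes, Hoxd4 among them.

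The promoter of Hoxd10 is given as that of the gene with the widest difference between PVASC and Ab-ASC, at chr2:74691641-74691890 on the plus strand. It held 1 CCAAT match and 20 CpG.
Hoxd10: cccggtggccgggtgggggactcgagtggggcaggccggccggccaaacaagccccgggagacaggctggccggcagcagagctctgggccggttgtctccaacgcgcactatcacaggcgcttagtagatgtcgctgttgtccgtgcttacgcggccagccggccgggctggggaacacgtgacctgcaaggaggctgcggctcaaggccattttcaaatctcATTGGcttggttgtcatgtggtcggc

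Promoters of 22 of the 38 genes were found in RefSeq, in 24 windows. CCAAT was in 14 of the 24 windows, against 33.8% of all 32536 promoters searched on both strands. GGGCGG was in 10 windows, against 33.0%. TATAAA was in 4 windows, against 12.3%, and TGATNNAT was in 4, against 7.66%. The windows held 2 to 35 CpG, with a median of 12.5. These matches describe the sequence only.

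Paralogs of 1 number followed 1 order of the groups in some cases and not in others. Hoxa3 and Hoxb3, the tested genes of number 3, both ran from PVASC over Ab-ASC down to Sub-ASC. At number 9, Hoxa9 and Hoxc9 were highest in Sub-ASC, while Hoxb9 and Hoxd9 were highest in PVASC. Of these, Hoxc9 led in Sub-ASC with 13.4 ± 0.556 FPKM (SD, n = 3) and Hoxb9 led in PVASC with 10.9 ± 0.763. At number 10, Hoxa10 and Hoxc10 were highest in Sub-ASC and Hoxd10 in PVASC, where it stood at 1.48 ± 0.117 FPKM beside 0.121 ± 0.0185 for Hoxa10 and 0.146 ± 0.0337 for Hoxc10. At number 13, Hoxb13 was found in Sub-ASC and Hoxc13 was highest in Ab-ASC. At number 5, by contrast, Hoxa5 and Hoxb5 were highest in PVASC and Hoxc5 in Ab-ASC, and at number 8 the highest groups were PVASC for Hoxb8 and Ab-ASC for Hoxc8, while Hoxd8 was lowest in PVASC.

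The order of the genes by level differed between the depots accordingly. In Sub-ASC, Hoxc6 led with 23.1 ± 1.31 FPKM (SD, n = 3), followed by Hoxc10 at 19.0 ± 1.34, Hoxc9 at 13.4 ± 0.556 and Hoxb7 at 11.4 ± 0.0745, each clear of the next. Ab-ASC was led by Hoxc6 at 20.9 ± 0.850 and Hoxc8 at 20 ± 0.784, whose libraries overlapped, then by Hoxa5 at 16.8 ± 0.953. In PVASC, Hoxa5 led with 28.1 ± 2.5, followed by Hoxb6 at 14.8 ± 0.140 and Hoxb7 at 13.3 ± 0.440, and then by Hoxb9, Hoxb4 and Hoxb8 between 9.66 and 10.9, which overlapped with their neighbours in the order.

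Summed over the 38 genes, the level was 132 ± 2.43 FPKM in Sub-ASC, 146 ± 3.30 in Ab-ASC and 160 ± 5.03 in PVASC (SD, n = 3). FPKM leaves out the TMM factors, which were 0.908 to 0.954 in Ab-ASC and 1.09 to 1.10 in PVASC. Divided by those factors, the mean sum would be higher in Ab-ASC than in PVASC, so their order depends on the scaling. The make-up of the sum differed more than its size. Cluster c made up 56.1% ± 0.367 of it in Sub-ASC, 43.7% ± 0.308 in Ab-ASC and 13.7% ± 0.649 in PVASC. Cluster a had 15.8% ± 0.161, 27.2% ± 0.421 and 37.0% ± 0.672 in the same order, and cluster b 21.7% ± 0.654, 23.8% ± 0.685 and 42.2% ± 0.560. Hoxa5 made up much of the share of cluster a in Ab-ASC and PVASC, and less of it in Sub-ASC. With that gene left out of every group the share was 13.6%, 17.8% and 23.5%, in the same order of groups. Cluster d had group means of 5.24% to 7.16%.

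By position, central genes held the largest share in every group, with 62.6% ± 0.912 in Sub-ASC, 84.3% ± 0.470 in Ab-ASC and 78.9% ± 0.402 in PVASC. Posterior genes held 35.0% ± 1.00, 9.89% ± 0.526 and 11.8% ± 0.273, and anterior genes 2.42% ± 0.194, 5.78% ± 0.237 and 9.28% ± 0.160. From counts not divided by length the anterior shares were 4.19%, 10.1% and 16.1%, over 1.5 times higher in each group and in the same order. The highest posterior gene was Hoxc10 in Sub-ASC, Hoxc9 in Ab-ASC (8.38 ± 0.350 FPKM) and Hoxb9 in PVASC. For clusters a, b and c and for each position the library ranges of the 3 groups did not overlap. With 3 libraries against 3, an exact permutation test cannot reach a p under 0.05, and no test was run on the shares.

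**Figure D3:**
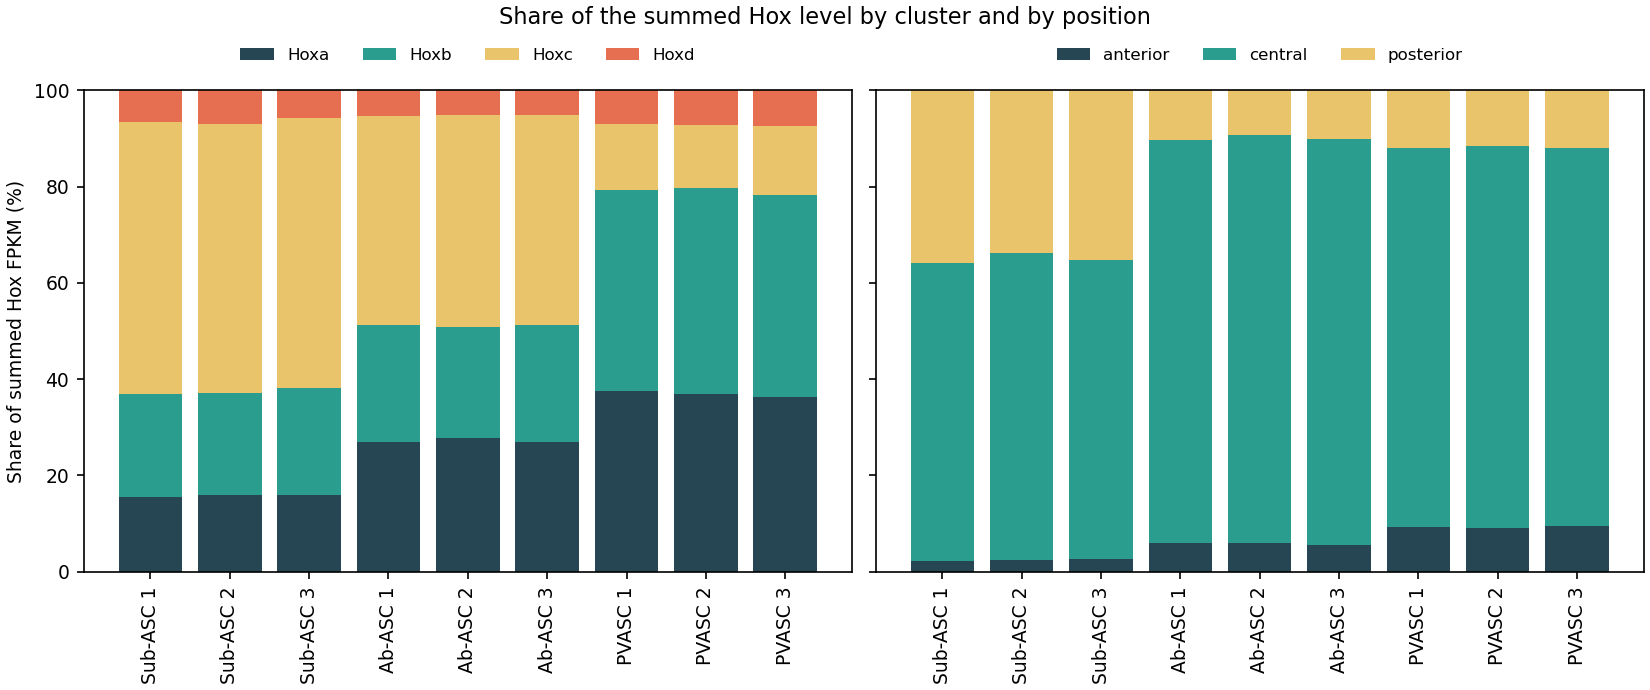
Stacked bars give the share (%) of the summed FPKM of 38 Hox genes in each of the 9 libraries, by cluster (left) and by position (right; anterior 1 to 3, central 4 to 8, posterior 9 to 13). Hoxc fills 55.8% to 56.5% of the Sub-ASC bars and 13.1% to 14.4% of the PVASC bars, and the posterior share is 33.9% to 35.8% in Sub-ASC.

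Between PVASC and Sub-ASC, 15 of the 28 tested Hox genes were higher and 10 were lower in PVASC (edgeR's quasi-likelihood test, adjusted over all genes), or 89.3%, where 70.4% of all 16526 genes tested were called (34.7% higher and 35.7% lower). With a difference of at least 2-fold asked for in addition, 13 were higher and 7 lower, or 71.4%, against 32.2% of all genes (15.7% higher and 16.6% lower). The median log2 difference was 0.64, beside -0.01 over all genes. By position, the 4 anterior genes tested were all higher in PVASC, the 14 central ones split into 8 higher and 4 lower, and the 10 posterior ones into 3 higher and 6 lower.

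Between PVASC and Ab-ASC, 12 were higher and 10 lower in PVASC, or 78.6%, where 56.9% of all genes were called (24.7% higher and 32.1% lower). At 2-fold or more, 4 were higher and 9 lower, or 46.4%, against 15.4% (10.1% higher and 5.31% lower). The 4 were Hoxb8, Hoxb9, Hoxd9 and Hoxd10, and the 9 were Hoxa10 and the 8 tested genes of cluster c, Hoxc11 only by a fitted value against a group with no read. The median over 26 genes, without Hoxb13 and Hoxc11, which had at most 3 reads in any library of these groups, was 0.12, beside -0.06 over all genes. Between Ab-ASC and Sub-ASC, 16 were higher and 8 lower in Ab-ASC, or 85.7%, where 75.3% of all genes were called (37.0% higher and 38.3% lower). At 2-fold or more, 11 were higher and 6 lower, or 60.7%, against 37.8% (16.4% higher and 21.3% lower). Of the 14 central genes, 10 were higher and none lower in Ab-ASC than in Sub-ASC, and of the 10 posterior genes 2 were higher and 8 lower. In each cluster, position class or list given here with no gene called in 1 direction by edgeR, 0 genes passed in that direction at an unadjusted p under 0.05 and 0 by DESeq2. The 3 comparisons share groups and are not independent of each other, and a low gene entered the test only where 1 group held enough reads, so the shares of called genes describe the tested genes and not all 38.

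**Figure D4:**
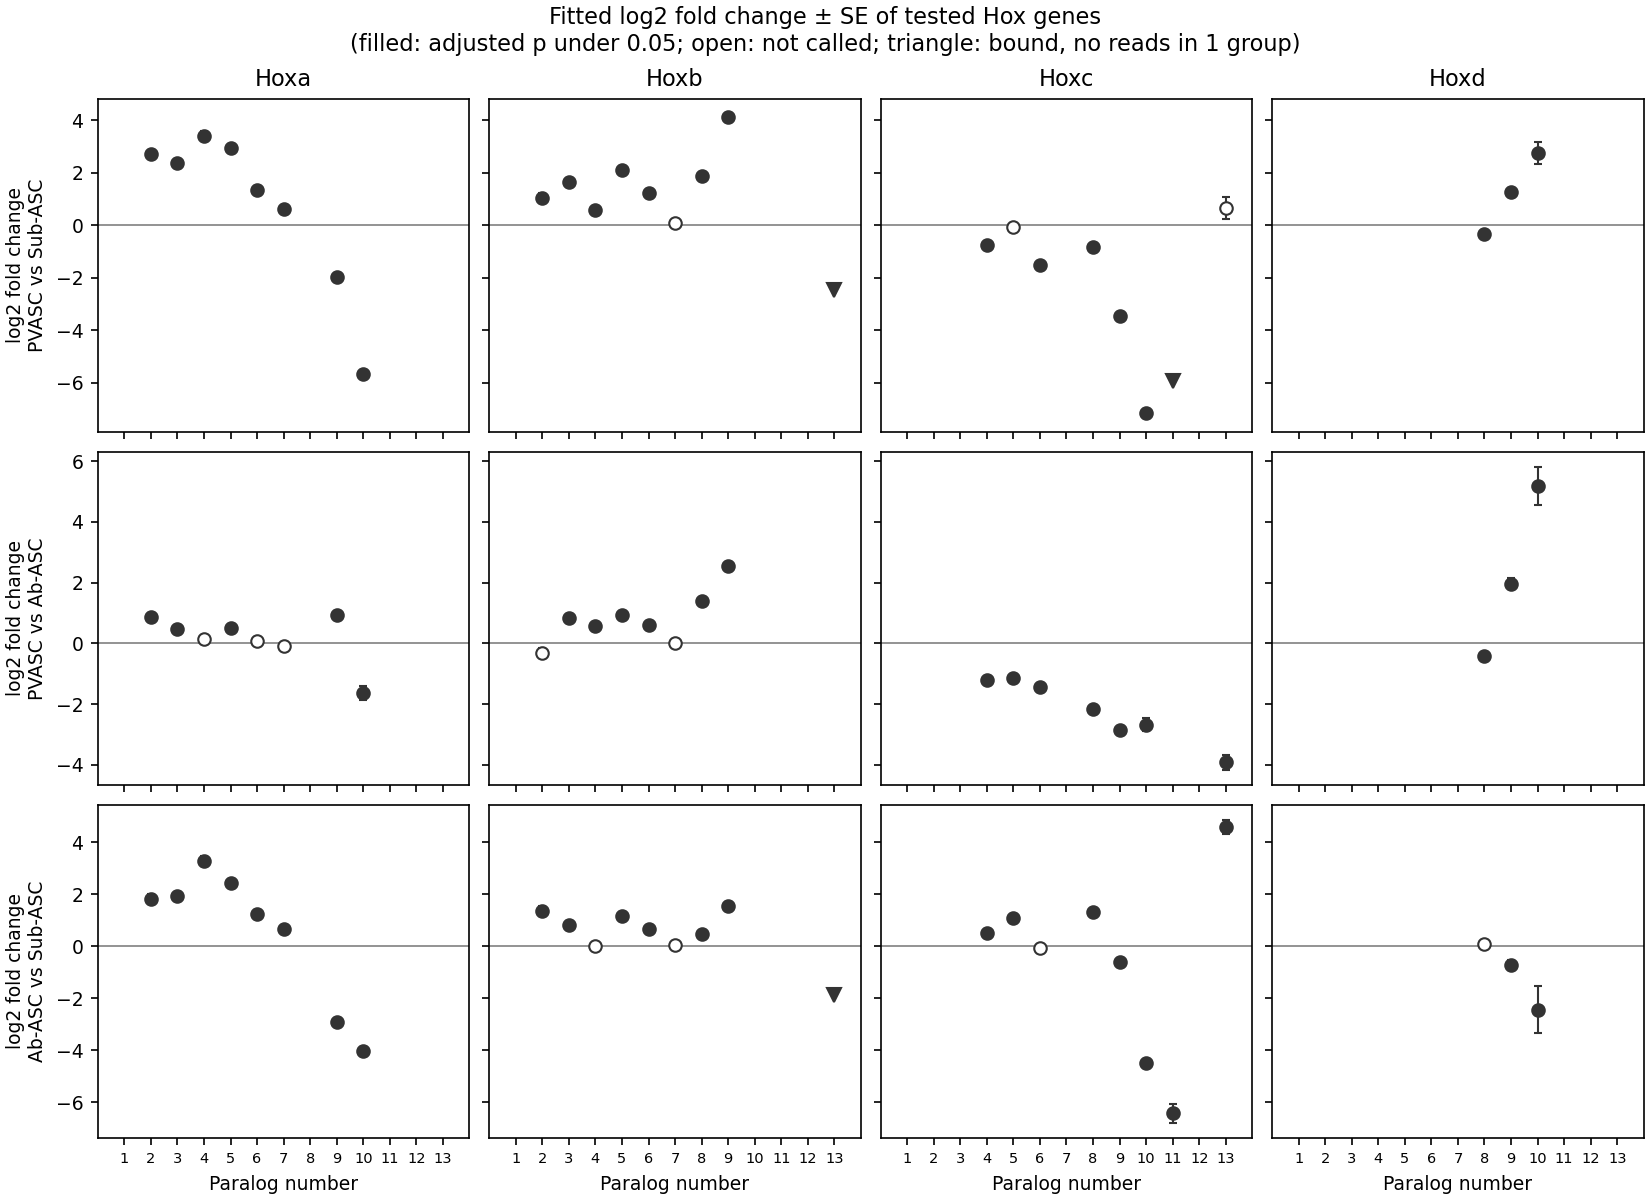
Fitted log2 fold change with its SE (vertical bars) against paralog number for each cluster and comparison, filled where the adjusted p was under 0.05; triangles mark bounds for Hoxb13 and Hoxc11, which had no read in 1 group, and neither is drawn for PVASC against Ab-ASC. In Hoxa the points run from 2.69 at Hoxa2 to -5.65 at Hoxa10 for PVASC against Sub-ASC, in Hoxb they peak at Hoxb9, and in Hoxc the points for PVASC against Ab-ASC all lie below 0.

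Of 49 noncoding genes listed within or beside the clusters, 12 passed the filter on low counts, and most of these were higher in PVASC than in Sub-ASC. Against Sub-ASC, 11 of these were higher and 1 was lower in PVASC, and against Ab-ASC 6 were higher and none was lower (70.4% and 56.9% of all genes were called in either direction). Between Ab-ASC and Sub-ASC, 8 were higher and 1 was lower in Ab-ASC, where 75.3% of all genes were called. Hoxaas2, an antisense transcript of cluster a, had mean levels of 1.22 ± 0.0741 CPM in Sub-ASC, 2.03 ± 0.202 in Ab-ASC and 6.28 ± 0.575 in PVASC (SD, n = 3). Hoxb5os, antisense to Hoxb5, had 1.00 ± 0.234, 1.59 ± 0.375 and 5.66 ± 0.920. Both were higher in PVASC than in each other group, in the direction of their coding neighbours, and their reads cannot be assigned to a strand.

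Hotairm1, a long noncoding RNA from the anterior end of cluster a that is known from myeloid cells, was at 1.73 ± 0.446 CPM in Sub-ASC, 3.21 ± 0.0891 in Ab-ASC and 3.90 ± 0.237 in PVASC, higher in both than in Sub-ASC. The largest difference among the 12 was at Gm53, in cluster b, with 0.416 ± 0.290, 2.01 ± 0.484 and 4.0 ± 0.530 CPM. Hoxd3os1 was the exception, at 2.23 ± 0.399 CPM in Sub-ASC, 1.16 ± 0.0482 in Ab-ASC and 1.17 ± 0.0969 in PVASC. Hotair, the noncoding RNA of the posterior part of cluster c that is known to recruit Polycomb proteins, had 3, 4 and 3 reads in the Sub-ASC libraries, 0, 0 and 1 in Ab-ASC and 1, 0 and 0 in PVASC, and was not tested.

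**Figure D5:**
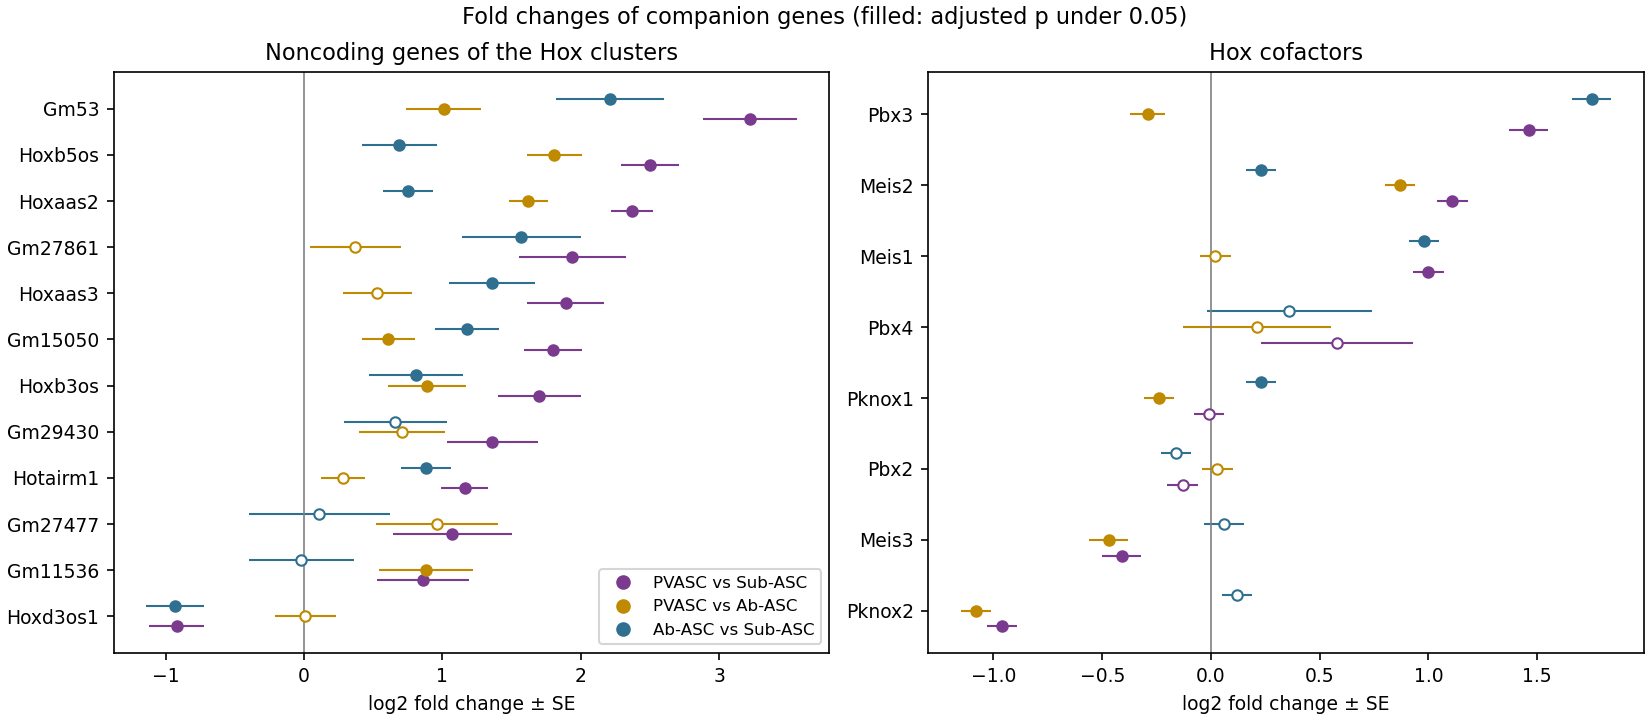
Log2 fold change with its SE for the 12 tested noncoding genes of the clusters (left) and 8 of the 9 Hox cofactors (right) in the 3 comparisons, filled where the adjusted p was under 0.05. All noncoding genes but Hoxd3os1 lie above 0 for PVASC against Sub-ASC, and Meis2 lies above 0 and Pknox2 below 0 in both comparisons of PVASC.

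The clusters also hold genes of the miR-10 and miR-196 families, which are known to act on Hox transcripts. Their mature sequences (RefSeq, GRCm38.p6) are shown with the seed, bases 2 to 8, in capitals, since the seed is what the members of a family share.
miR-10a-5p: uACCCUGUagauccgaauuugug
miR-10b-5p: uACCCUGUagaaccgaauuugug
miR-196a-5p: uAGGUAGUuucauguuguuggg
miR-196b-5p: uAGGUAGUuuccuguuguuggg

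The mature miR-196a-5p is encoded at 2 loci, in cluster b between Hoxb9 and Hoxb13 (Mir196a-1, at chr11:96265187-96265208) and in cluster c between Hoxc9 and Hoxc10 (Mir196a-2, at chr15:102973365-102973386). These libraries counted longer RNA, so reads at such genes come from the transcripts that span them and do not measure the mature miRNA. Mir196a-1 had 0, 0 and 1 reads in the Sub-ASC libraries, 3, 6 and 3 in Ab-ASC and 9, 22 and 11 in PVASC. Mir196a-2 had 6, 3 and 1 reads in Sub-ASC and none in the other 6 libraries. Most reads of the first were in PVASC and all of the second in Sub-ASC, on counts too low to pass the filter. Mir10a, beside Hoxb4, had 2, 0 and 1 reads in Sub-ASC, 2, 4 and 0 in Ab-ASC and 7, 6 and 10 in PVASC.

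Of the proteins that bind DNA with Hox proteins, all 9 genes listed were tested. Against Sub-ASC, 4 were higher and 2 lower in PVASC, against Ab-ASC 1 was higher and 4 were lower, and 5 were higher and none lower in Ab-ASC than in Sub-ASC. These came to 66.7%, 55.6% and 55.6% called, below the 70.4%, 56.9% and 75.3% of all genes. Meis2 was higher in PVASC than in both others, with 31.1 ± 1.62 CPM in Sub-ASC, 36.4 ± 3.10 in Ab-ASC and 66.9 ± 1.5 in PVASC (SD, n = 3). Meis1 was at 20.2 ± 1.49, 39.9 ± 2.64 and 40.3 ± 0.751 CPM, lowest in Sub-ASC and not passing between PVASC and Ab-ASC. Pbx3 was at 7.76 ± 0.262, 26.1 ± 2.14 and 21.3 ± 1.10 CPM, lowest in Sub-ASC, and Pknox2 at 30.9 ± 1.63, 33.7 ± 1.79 and 15.9 ± 0.697, lowest in PVASC.

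The 32 genes of chromatin complexes that act on Hox clusters were all tested. Against Sub-ASC, 13 were higher and 15 lower in PVASC, or 87.5%, against Ab-ASC 11 were higher and 9 lower, or 62.5%, and between Ab-ASC and Sub-ASC 9 were higher and 12 lower in Ab-ASC, or 65.6%, beside 70.4%, 56.9% and 75.3% of all genes. At 2-fold or more these came to 6, 0 and 8 genes, or 18.8%, 0.0% and 25.0%, each below the 32.2%, 15.4% and 37.8% of all genes. The 2 enzymes of the Polycomb complex that methylates histone H3 differed in opposite directions. Ezh2 was at 11 ± 1.28 CPM in Sub-ASC, 36.2 ± 2.66 in Ab-ASC and 35.3 ± 0.28 in PVASC (SD, n = 3), and Ezh1 at 46.3 ± 1.53, 18.3 ± 1.01 and 18.8 ± 0.403. Ezh2 is also known to follow cell division, which was not examined here. Of the Cbx readers of that mark, Cbx7 was at 8.51 ± 0.731, 1.56 ± 0.611 and 2.61 ± 0.197 CPM and Cbx6 at 223 ± 14.8, 89.9 ± 3.89 and 130 ± 3.02, both highest in Sub-ASC. The trithorax methyltransferase Kmt2a was at 161 ± 13.1, 130 ± 10.4 and 138 ± 2.38 CPM, lower in Ab-ASC and in PVASC than in Sub-ASC by a small step (log2 -0.30 and -0.22). Ctcf, which binds boundaries within the clusters, did not pass in any comparison, at 60.6 to 62.6 CPM.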

How the data were processed

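The authors' deposited table holds raw counts per gene for 9 libraries of cultured cells. The submitters' processing notes name CASAVA 1.8, Bowtie 0.12.2 and featureCounts 1.5.0-p3 and the builds mm8 and mm10, without their roles. Positions of 53499 of 54532 genes (98.1%) matched GENCODE M21 on GRCm38. The counts were tested with edgeR 4.0.16 (R 4.3.3): filterByExpr, TMM factors, 1 quasi-likelihood fit of all 9 libraries, 3 contrasts, and Benjamini-Hochberg adjustment over all 16526 genes tested, called at an adjusted p under 0.05. The test was checked on simulated counts. FPKM was computed from counts, listed gene length and library total. It is not on the TMM scale of the CPM values.

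The members and lists were chosen with earlier results of these data known. The symbol pattern matched 39 genes, of which 1 is not reported here, and neither are the values of 1 listed cofactor, which is in the counts. Hoxd4 had 2 rows, of which 1 was used. Members were named by cluster and number. Values per library are given for tested genes whose group means differed by at least 2-fold and for the highest gene of each cluster and group. No libraries were identical beyond sampling noise: the chi-square per degree of freedom between replicates was 2.92 to 29.28, widest for Ab-ASC replicate 1. Alternatives were DESeq2 1.42.0, RLE factors, other count filters, the compared groups alone, a replicate block, a 2-fold cutoff, and leaving out each library. Sequences came from RefSeq tables.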

Additional observations from a re-analysis of the deposited data

How the results depend on the processing

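Over 83 single Hox comparisons and 16 alternatives, 1308 values were recomputed, of which 1261 kept their direction and side of the threshold. Another 21 lost their call only because a 2-fold difference was asked for. The 15 changes of sign concerned differences near 0 that were not called. Hoxb4 between Ab-ASC and Sub-ASC came to log2 -0.0034 with DESeq2, -0.004 with RLE factors, -0.0433 with 10 reads in every library, -0.012 in the groups compared alone and -0.0361 to 0.0435 without 1 library. Hoxb7 came to -0.0448 to 0.1392 between PVASC and Ab-ASC and -0.0684 to 0.116 between Ab-ASC and Sub-ASC without 1 library, and to -0.0029 in the latter with 10 reads. Hoxa7 came to 0.0093 between PVASC and Ab-ASC in the groups alone. Without 1 library, Hoxc5 came to -0.1141 to 0.018 between PVASC and Sub-ASC and Hoxd8 to -0.0145 to 0.1791 between Ab-ASC and Sub-ASC.

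Same-numbered libraries did not deviate together (correlations -0.0514 to 0.095). With 3 libraries in each group, this cannot exclude that libraries of 1 number share a mouse, a culture or a day. The sources used here do not say whether they do. With the replicate number as a block, 15 Hox genes were higher and 10 lower in PVASC than in Sub-ASC, 12 and 9 than in Ab-ASC, and 16 and 8 in Ab-ASC than in Sub-ASC. The block changed the call of 1 Hox gene, Hoxc11 between PVASC and Ab-ASC (edgeR adjusted p = 0.0616).

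With 10 reads asked for in every library, fewer genes were tested, and 6, 6 and 3 Hox genes were lower in PVASC than in Sub-ASC, in PVASC than in Ab-ASC and in Ab-ASC than in Sub-ASC. The noncoding genes higher then numbered 5, 3 and 5, and cofactors higher in PVASC than in Ab-ASC 2, and lower in Ab-ASC than in Sub-ASC 1. With no filter, 3 and 4 noncoding genes were lower in PVASC and in Ab-ASC than in Sub-ASC. Cofactors higher in PVASC than in Ab-ASC came to 2 with DESeq2, RLE factors and the groups alone, and to 1 to 2 without 1 library. In the groups alone, 10 noncoding genes were higher in PVASC than in Ab-ASC and 3 cofactors in Ab-ASC than in Sub-ASC. Without 1 library, 3 to 5 cofactors were higher and 0 to 1 lower in Ab-ASC than in Sub-ASC. The cause of these shifts was not tested.

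At 2-fold or more, the numbers higher and lower in PVASC than in Sub-ASC were 2591 and 2737 of all genes, 2 and 0 cofactors, and 3 and 3 chromatin regulators, with 0 noncoding genes lower. In PVASC against Ab-ASC they were 1673 and 878 of all genes, 4 Hox genes higher, 0 and 1 cofactors, and 0 and 0 regulators, with 3 noncoding genes higher. In Ab-ASC against Sub-ASC they were 2714 and 3527 of all genes, 1 cofactor higher, 3 and 5 regulators, and 4 and 0 noncoding genes.

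The shares of clusters a, b, c and d moved with the scaling. From counts not divided by length they were 19.6%, 19.0%, 54.4% and little changed for d in Sub-ASC, 25.4%, 21.9%, 46.9% and 5.76% in Ab-ASC, and 35.6%, little changed for b, 15.1% and little changed for d in PVASC. Without the highest member, Hoxc6 in Sub-ASC and Ab-ASC and Hoxa5 in PVASC, they were 19.1%, 26.2%, 46.9% and 7.79% in Sub-ASC, 31.8%, 27.8%, 34.3% and 6.11% in Ab-ASC, and 23.5%, 51.1%, 16.7% and 8.68% in PVASC. With Hoxa5 left out of every group, chosen after seeing the data, a and c were 13.6% and 57.6% in Sub-ASC, the 4 clusters 17.8%, 26.9%, 49.3% and 5.92% in Ab-ASC, and 23.5%, 51.1%, 16.7% and 8.68% in PVASC. By exon length not shared with other genes, also chosen after seeing the data, a and c were 16.5% and 55.4% in Sub-ASC, a, c and d 28.7%, 41.9% and 5.0% in Ab-ASC, and 38.0%, 12.9% and 6.82% in PVASC. Anterior and central shares without length scaling were 4.19% and 60.3% in Sub-ASC, 10.1% and 79.7% in Ab-ASC, and 16.1% and 71.3% in PVASC, with 12.6% posterior. Without the highest member the anterior, central and posterior shares were 2.94%, 54.7% and 42.4% in Sub-ASC, 6.75%, 81.7% and 11.5% in Ab-ASC, and 11.3%, 74.4% and 14.4% in PVASC. By unshared length they were 3.80% and 61.2% in Sub-ASC, 8.22% and 82.3% in Ab-ASC, and 13.2%, 75.7% and 11.1% in PVASC. Cluster c stayed the largest share in Sub-ASC and Ab-ASC and cluster b in PVASC under all these. The numbers of Hox genes detected were 32, 31 and 30 at 1 read over the group and 24, 25 and 23 at a mean of 1 CPM. Depth limits statements on the 6 tested genes with under 10 reads in some library, and on the 10 not tested.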
